A study of Homo sapiens with 2 samples.

Results

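The genes described here were the 207 expressed ZNF genes, human genes whose symbol is ZNF followed by a number, of 494 measured ZNF genes and of 9209 expressed genes in all. They were chosen by symbol and by level: the mean log2 intensity over both arrays had to reach the median gene mean, 7.26, so the level of a member is a condition of entry and not a result. Intensity was read in HepG2, a human hepatoma line, on 2 arrays. The SiO2-NP array held RNA of cells exposed for 24 h to 100 mg/L silica nanoparticles in amorphous form, and the control array held RNA of HepG2 cells labelled as control. Cells were grown in MEM medium, in which the particle stock was also diluted; what the control cells received, the particle size and any pooling are not in the labels. RNA of both was amplified as cDNA, labelled with biotin and hybridised to Affymetrix arrays. Each group was 1 array, so the log2 differences given here, SiO2-NP minus control, have no replicate error and no test, and "higher" or "lower" means only that these arrays differed. In RNA of a whole culture, fewer cells of a type and less RNA per cell cannot be told apart.

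Most ZNF proteins bind DNA through tandem C2H2 fingers, short loops in which cysteines and histidines hold a zinc ion. Many carry a KRAB domain, which recruits the corepressor TRIM28 and, through it, the histone methyltransferase SETDB1, and so silences transposable elements and nearby genes. KRAB zinc finger genes arose by repeated duplication and lie side by side in clusters, most of all on chromosome 19. Some ZNF proteins have other work, in ribosome assembly, RNA processing or protein modification.

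All 7 measured hepatocyte markers, ALB and AFP among them, reached the level threshold, with log2 intensities of 11.0 to 13.4 in the SiO2-NP array and 11.0 to 13.5 in the control array. Of the other cell types, 1 of 7 fibroblast markers (COL1A1), 2 of 6 leukocyte markers (LYZ and CD68) and 0 of 5 endothelial markers reached it. LYZ was bright on both arrays (13.3 in the SiO2-NP array and 13.2 in the control array), CD68 had 9.49 and 9.61, and COL1A1 had 7.67 and 7.43; their part in the results was not tested. Median intensity over all 33297 probe sets was 6.69 in the SiO2-NP array and 6.65 in the control array.

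The ZNF genes were shifted to lower values in the exposed cells, by a small amount per gene. Their median log2 intensity was 7.92 in the SiO2-NP array and 8.04 in the control array, and the median of their differences was -0.09, against -0.03 over all expressed genes. Of the 207, 146 (70.5%) were below the control, where 59.8% of all expressed genes were. With 1.2-fold (a log2 difference of 0.26) as the threshold, 49 members (23.7%) were lower by at least that size, against 7.53% of all expressed genes, while 4 members (1.93%) were at least 1.2-fold higher, against 2.99%. At 1.5-fold, 2 members were lower and 0 were higher, against 0.25% and 0.141% of all expressed genes. The scaling moved these shares: after quantile normalization, 62.8% of the members and 46.4% of all expressed genes were below the control, 37 members (17.9%) were at least 1.2-fold lower, against 5.15% of all expressed genes, and 5 members (2.42%) were at least 1.2-fold higher, against 4.28%. The SD of the differences was 0.19 over the members and 0.16 over all expressed genes, and the arrays correlated across the members with a Pearson r of 0.951, against 0.991 across all expressed genes (genes are not independent replicates, and the members span a narrower range of intensity).

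**Figure D1:**
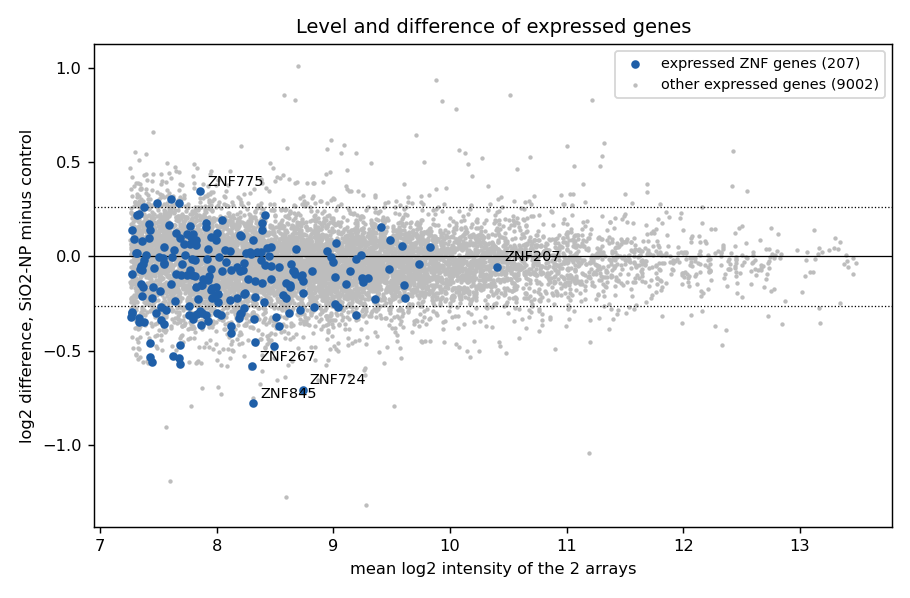
Log2 difference (SiO2-NP minus control, y axis) against mean log2 intensity of the arrays (x axis) for 207 expressed ZNF genes (blue) and 9002 other expressed genes (grey); dotted lines mark 1.2-fold. The blue points extend further below the lower dotted line (49 genes) than above the upper one (4 genes), and ZNF845 and ZNF724 are the lowest of them.

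The median was negative in each of 4 bands of intensity, and lower than that of other genes in the same band. Among the 52 dimmest members (mean log2 intensity 7.27 to 7.65) the median difference was -0.06 and 28.8% were at least 1.2-fold lower, while 1139 other expressed genes of like intensity had a median of 0.01 and 7.2%. Among the 52 brightest (8.45 to 10.4) the median was -0.11 and 17.3% were at least 1.2-fold lower, against -0.04 and 6.66% of 4307 other genes. Intensity and difference were nearly unrelated across the 174 members with a promoter sequence (Pearson r = -0.0306). At the entry threshold, the nearest members were ZNF813 (7.10 in the SiO2-NP array and 7.43 in the control array), ZNF766 (7.22 and 7.32) and ZNF416 (7.12 and 7.42). The nearest ZNF genes left out were ZNF322 (7.19 and 7.31), ZNF562 (7.08 and 7.39) and ZNF675 (7.02 and 7.45). These nearest genes, on either side of the threshold, were all lower in the SiO2-NP array. Members a little further above it differed in either sign, as with ZNF383 (-0.30) and ZNF407 (0.14). Since the mean of both arrays was used, 191 members were over the threshold on both arrays, 5 in the SiO2-NP array alone and 11 in the control array alone. Most of these 11 count among the members at least 1.2-fold lower, and ZNF566 and ZNF865 are among the 10 lowest. Of the 5, ZNF641, ZNF597 and ZNF385A are among the 10 highest.

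The lowest member, ZNF845, had a log2 intensity of 7.92 in the SiO2-NP array and 8.70 in the control array, a difference of -0.78 or 1.72-fold lower. ZNF724 had 8.38 in the SiO2-NP array and 9.09 in the control array, 1.63-fold lower. These were the only members past 1.5-fold. ZNF845 is also among the symbols of 3 probe sets that list 4, 10 and 9 genes. These were not used for it and differed by -0.47, 0.01 and -0.10. They do not measure ZNF845 alone, so its difference rests on 1 probe set. ZNF267 (8.01 and 8.59) missed 1.5-fold narrowly, at 1.499-fold lower. They were followed by ZNF273, with 7.40 in the SiO2-NP array and 7.97 in the control array, ZNF566 with 7.17 and 7.73, and ZNF543 with 7.41 and 7.95. ZNF865, ZNF486, ZNF92 and the transcribed pseudogene ZNF252P completed the 10 lowest, with differences of -0.54, -0.53, -0.47 and -0.47. Of these 10, 6 lie on chromosome 19 and 2 on chromosome 7.

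The highest members differed by less. ZNF775 had 8.03 in the SiO2-NP array and 7.68 in the control array, a difference of 0.34 or 1.27-fold higher. ZNF579 had 7.76 in the SiO2-NP array and 7.46 in the control array, ZNF837 had 7.63 and 7.34, and ZNF764 had 7.81 and 7.53, and these 4 were the members at least 1.2-fold higher. The next were ZNF641 (0.26), ZNF597 (0.23), ZNF784 (0.22), ZNF385A (0.22), a regulator of p53 target choice, ZNF444 (0.19), a SCAN-domain factor, and ZNF703 (0.18), a transcriptional cofactor amplified in luminal breast cancer. The largest positive difference was thus smaller in size than each of the 10 largest negative ones.

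**Figure D2:**
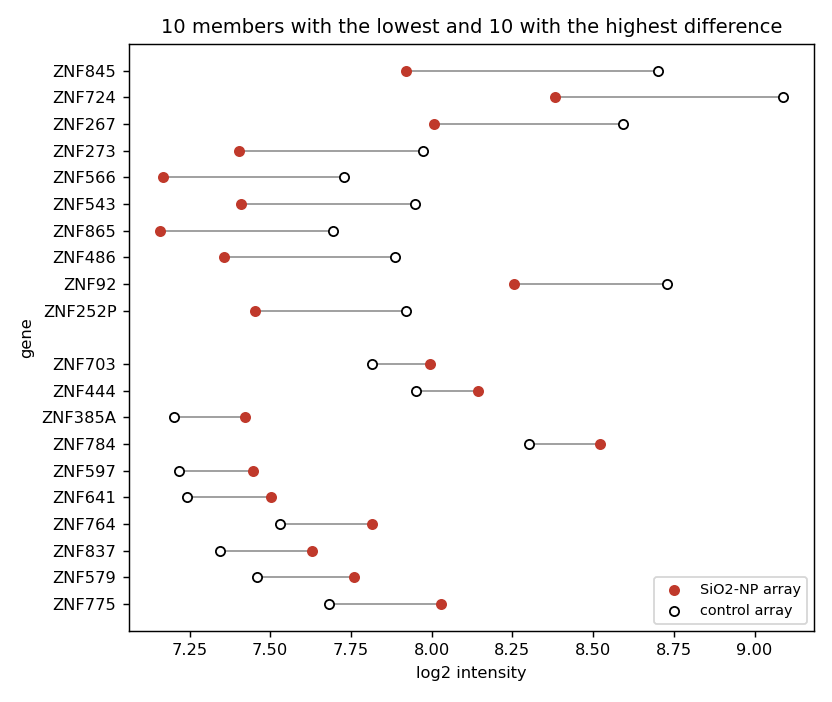
Log2 intensity in the SiO2-NP array (red) and in the control array (open) for the 10 members with the lowest and the 10 with the highest difference. The upper genes run from ZNF845 (7.92 and 8.70) to ZNF252P (7.45 and 7.92), and the lower block ends with ZNF775 (8.03 and 7.68), where the spacing of the points is shorter.

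Sequence before the start of transcription is shown for the 3 lowest members, for ZNF486 and ZNF107, which share a promoter word with ZNF724 and ZNF267, and for the 2 highest members. Each run is the 250 bases upstream of the RefSeq start (GRCh38.p14), 5′ to 3′ on the strand of the gene. Capitals mark the GC box GGGCGG, the CCAAT box and the word ACCGTCCAAT, each on either strand; the word contains a CCAAT box. The windows are chr19:53333499-53333748 (plus strand), chr19:23250395-23250644 (minus strand), chr16:31873557-31873806 (plus strand), chr19:20166964-20167213 (plus strand), chr7:64665883-64666132 (plus strand), chr7:150379080-150379329 (plus strand) and chr19:55580849-55581098 (minus strand).
ZNF845: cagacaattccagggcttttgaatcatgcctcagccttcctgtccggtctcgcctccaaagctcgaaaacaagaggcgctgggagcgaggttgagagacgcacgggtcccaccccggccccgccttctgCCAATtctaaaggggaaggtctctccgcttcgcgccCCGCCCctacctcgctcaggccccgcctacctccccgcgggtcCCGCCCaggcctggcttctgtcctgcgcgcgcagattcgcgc
ZNF724: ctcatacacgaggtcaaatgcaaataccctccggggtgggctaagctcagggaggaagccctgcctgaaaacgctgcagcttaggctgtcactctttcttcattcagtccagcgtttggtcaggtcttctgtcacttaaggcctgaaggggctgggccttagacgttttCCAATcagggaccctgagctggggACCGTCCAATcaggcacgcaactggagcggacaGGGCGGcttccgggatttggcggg
ZNF267: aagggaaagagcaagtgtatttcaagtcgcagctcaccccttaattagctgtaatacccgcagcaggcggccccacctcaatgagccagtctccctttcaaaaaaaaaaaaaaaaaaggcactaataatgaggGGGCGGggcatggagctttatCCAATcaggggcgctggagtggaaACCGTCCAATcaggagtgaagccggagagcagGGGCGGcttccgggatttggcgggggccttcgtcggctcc
ZNF486: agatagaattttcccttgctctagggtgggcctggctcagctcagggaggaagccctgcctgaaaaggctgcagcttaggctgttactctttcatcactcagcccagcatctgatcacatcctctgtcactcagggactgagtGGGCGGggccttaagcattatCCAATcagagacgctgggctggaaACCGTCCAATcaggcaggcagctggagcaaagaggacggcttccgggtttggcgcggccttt
ZNF107: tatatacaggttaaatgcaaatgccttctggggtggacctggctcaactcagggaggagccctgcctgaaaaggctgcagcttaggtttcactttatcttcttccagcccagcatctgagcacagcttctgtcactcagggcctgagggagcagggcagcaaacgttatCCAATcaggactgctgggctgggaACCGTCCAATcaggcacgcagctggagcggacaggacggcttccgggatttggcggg
ZNF775: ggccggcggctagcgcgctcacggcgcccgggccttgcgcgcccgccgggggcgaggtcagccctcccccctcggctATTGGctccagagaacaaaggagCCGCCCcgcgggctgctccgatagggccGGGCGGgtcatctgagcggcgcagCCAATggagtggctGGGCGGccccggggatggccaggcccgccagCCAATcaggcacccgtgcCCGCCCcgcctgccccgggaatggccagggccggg
ZNF579: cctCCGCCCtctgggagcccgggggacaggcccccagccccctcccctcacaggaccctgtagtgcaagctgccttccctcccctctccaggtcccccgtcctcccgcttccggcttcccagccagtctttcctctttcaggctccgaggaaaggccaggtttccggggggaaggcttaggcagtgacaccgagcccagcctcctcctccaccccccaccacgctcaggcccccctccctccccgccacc

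The promoters of ZNF724, ZNF267, ZNF486 and ZNF107 each hold 2 CCAAT boxes, at least 1 of them inside ACCGTCCAAT, although the genes lie on chromosomes 19, 16, 19 and 7. ZNF845 has 1 CCAAT box and 2 GC boxes without the word. ZNF775 has 4 GC boxes and 3 CCAAT boxes, and ZNF579 has 1 GC box and no CCAAT box. Upstream G+C content was 54.4% to 57.6% in the 4 promoters with the word, 66.0% in ZNF845, 77.6% in ZNF775 and 70.4% in ZNF579.

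Members that shared promoter words were lower in the exposed cells than the rest of the family. The words were picked from the promoters alone, as the word of 8, 10 or 12 bases held by at least 8 members and most over-represented against 26797 promoters of genes that are not ZNF genes, with 5 added to the count of the latter; the search was made after the differences had been seen. The 10-base word ACCGTCCAAT stood in 9 of 174 members with a promoter (5.17%) and in 3 of the 26797 others (0.0112%). All 9 holders had negative differences, their median was -0.33, and 8 were at least 1.2-fold lower, whereas the 165 members without the word had a median of -0.08 and 32 were at least 1.2-fold lower. Over all expressed genes, 59.8% had negative differences and 7.53% were at least 1.2-fold lower. The holders ran from ZNF724 (-0.71), ZNF267 (-0.58) and ZNF486 (-0.53) through ZNF90 (-0.36), ZNF100 (-0.33), ZNF493 (-0.31), ZNF714 (-0.31) and ZNF107 (-0.28) to ZNF257 (-0.12). Of the holders, 7 belong to the chromosome 19 run that holds ZNF91 and 1, ZNF107, to the chromosome 7 run that holds ZNF92. The word, the neighbourhood and the sequence likeness of these paralogues therefore cannot be told apart.

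Holders of the 8-base and 12-base words came for the most part from the same runs: 10 of 13 and 9 of 10 lie in the runs of ZNF91 on chromosome 19 and ZNF92 on chromosome 7, whose medians were the lowest of all runs described, so they add little that is independent. The 8-base word CGTCCAAT, which is part of the 10-base word, stood in 13 members and in 95 of the other promoters (0.355%). Of the 13 holders, 12 had negative differences, where 59.8% of all expressed genes did, and the median was -0.32 against -0.08 in the 161 without it. ZNF689 (0.14) was the exception. The 12-base word CTTTGTCTCTCG stood in 10 members and in 0 of the 26797 other promoters. All 10 had negative differences, and their median was -0.31 against -0.08 in the 164 without it, running from ZNF724 (-0.71) to ZNF254 (-0.02); ZNF124 (-0.19) on chromosome 1 was the holder outside those runs. A word match describes letters in a window and names no factor.

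Median differences varied between neighbourhoods of ZNF genes, from -0.46 to 0.17. In 4 of 10 neighbourhoods all members had negative differences, where 70.5% of all members and 59.8% of all expressed genes had them. Runs were taken from the gene order of RefSeq (GRCh38.p14) as ZNF genes with at most 3 other protein-coding genes between neighbours, and 10 runs with at least 5 members held 89 of the 207; a run is named by its first and last ZNF gene in RefSeq, which need not be a member. The largest shift was on chromosome 7 in the run ZNF722 to ZNF92, where all 5 members had negative differences (median -0.46). ZNF273 had 7.40 in the SiO2-NP array and 7.97 in the control array, ZNF92 had 8.25 and 8.73, ZNF680 had 7.19 and 7.65, ZNF107 had 8.10 and 8.37, and ZNF117 had 8.07 and 8.29. No member of this run was higher, and 4 of 5 were at least 1.2-fold lower, against 7.53% of all expressed genes. ZNF680 was over the level threshold in the control array alone.

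The run ZNF101 to ZNF254 on chromosome 19 was lower throughout: all 14 members had negative differences, against 59.8% of all expressed genes. Their median was -0.31, and 10 were at least 1.2-fold lower, against 7.53% of all expressed genes. The run holds ZNF91, a KRAB protein that silences SVA retrotransposons, with 9.04 in the SiO2-NP array and 9.35 in the control array. ZNF724 and ZNF486 were its lowest members, and 7 of the 14 lay in a narrow band from -0.29 to -0.33 (ZNF738, ZNF253, ZNF714, ZNF91, ZNF493, ZNF737 and ZNF100). The members nearest to no difference were ZNF254 (-0.02), ZNF101 (-0.08) and ZNF257 (-0.12). ZNF257, ZNF493 and ZNF626, the only members with several probe sets, lie in this run, and all 6 of their probe sets were lower. The probe sets of ZNF257 differed by -0.02 at a dim 5.75 in the SiO2-NP array and by -0.22 at 10.7, those of ZNF626 by -0.08 and -0.37, and those of ZNF493 by -0.34 and -0.29. The genes of this run are close paralogues, and array probes may read more than 1 of them.

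Other chromosome 19 runs were lower by less. Over all expressed genes, 59.8% had negative differences. In ZNF627 to ZNF791 all 8 members had negative differences (median -0.17), led by ZNF799 (-0.37) and ZNF136 (-0.32). In ZNF565 to ZNF573 all 5 did (median -0.23), led by ZNF566 (-0.56) and ZNF383 (-0.30). Both were over the level threshold in the control array alone, so their entry rested on the array where they were higher. In ZNF577 to ZNF331, 13 of 16 had negative differences (median -0.14), and ZNF845 (-0.78) stood well apart from the next, ZNF613 (-0.35). ZNF613, ZNF813 and ZNF766 of this run were likewise over the threshold in the control array alone. The runs ZNF317 to ZNF846 and ZNF264 to ZNF446 had medians of -0.09 (3 of 5 below) and -0.07 (13 of 20 below). The last of these holds ZNF274 (7.91 in the SiO2-NP array and 8.11 in the control array), which brings SETDB1 to the 3′ ends of ZNF genes, and it spans both ZNF543 (-0.54) and ZNF837 (0.28). Its members ZNF416 and ZNF256 were over the threshold in the control array alone.

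In 3 runs most members were higher. In ZNF579 to ZNF580 on chromosome 19, 4 of 5 members were above the control: ZNF579 (0.30), ZNF784 (0.22), ZNF524 (0.17) and ZNF580 (0.16). The exception was ZNF865, with 7.16 in the SiO2-NP array and 7.70 in the control array, over the level threshold in the latter alone. On chromosome 7 the run ZNF786 to ZNF862 had a median of 0.07, with ZNF398 (0.16) at one end and the pseudogene ZNF767P (-0.22) and ZNF777 (-0.21) at the other. On chromosome 16 the run ZNF205-AS1 to ZNF597 had a median of 0.02, led by ZNF597 (0.23) and by ZNF263 (0.17), a SCAN and KRAB factor. ZNF597 was over the level threshold in the SiO2-NP array alone. The runs on chromosome 7 thus had medians of opposite sign.

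**Figure D3:**
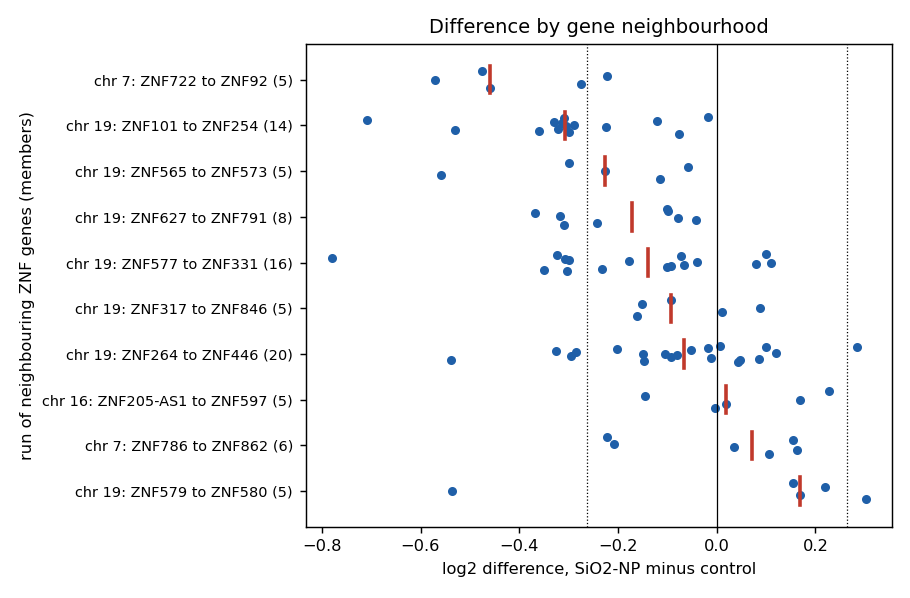
Log2 difference (SiO2-NP minus control) of each member in the 10 runs of neighbouring ZNF genes, named by their first and last ZNF gene, with the number of members in brackets; red bars are medians and dotted lines mark 1.2-fold. The medians span from -0.46 in the chromosome 7 run ending at ZNF92 to 0.17 in the chromosome 19 run ZNF579 to ZNF580, where ZNF865 is the point far to the left.

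Chromosome 19 carried 93 of the 207 members, and there the ZNF genes and the other genes differed in opposite directions. Of the 93, 72 (77.4%) had negative differences, the median was -0.11, and 29 (31.2%) were at least 1.2-fold lower. Of 540 other expressed genes on chromosome 19, 225 (41.7%) had negative differences, the median was 0.03, and 14 (2.59%) were at least 1.2-fold lower. The 114 members on other chromosomes had a median of -0.06, with 74 (64.9%) below and 20 (17.5%) at least 1.2-fold lower, against -0.03, 60.7% and 7.45% for the 8453 other expressed genes there. Both groups of ZNF genes thus had lower medians than the other genes, taken on chromosome 19 and pooled over the other chromosomes. Outside chromosome 19 the other genes were not summarised by single chromosome. The 18 members on chromosome 7 had a median of -0.12, and the 13 on chromosome 16 had 0.05, with 4 below the control. Medians were also positive on chromosomes 12 (0.09, 6 members), 18 (0.01, 5 members) and 11 (0.04, 1 member), and negative on the rest.

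The members with the most G+C-rich promoters had the median closest to 0, and the relation over all members was weak. Over 174 members (84.1% had a promoter in the table) the G+C content of the 300 bases from 250 before to 50 after the start correlated with the log2 difference with a Pearson r of 0.239 and a Spearman rho of 0.232. Over the 7355 other expressed genes with a promoter the values were 0.13 and 0.144. The 45 members with the lowest G+C content (42.3% to 57.7%) had a median difference of -0.14 and 16 at least 1.2-fold lower, against -0.05 and 122 of 1522 other expressed genes in that range. The 44 with the highest (68.7% to 83.3%) had -0.03 and 3, against -0.01 and 117 of 2916. The bands between were not in order, with medians of -0.10 (42 members, 10 at least 1.2-fold lower) and -0.11 (43 members, 11 at least 1.2-fold lower). Among the 83 members on chromosome 19 r was 0.135 and rho 0.197, and among the 91 elsewhere r was 0.279 and rho 0.24; the contrast was not tested. The genes share arrays and, within a cluster, ancestry, so these are descriptions.

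**Figure D4:**
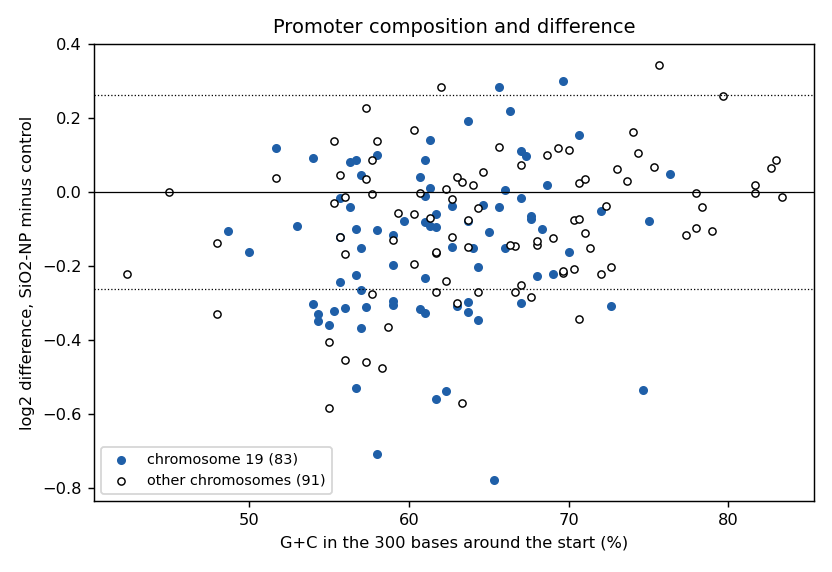
Log2 difference (SiO2-NP minus control) against G+C content of the 300 bases around the start for 83 members on chromosome 19 (blue) and 91 on other chromosomes (open); dotted lines mark 1.2-fold. Below the lower dotted line lie 16 of the 45 members with the lowest and 3 of the 44 with the highest G+C content, and ZNF865 (74.7%) is the low point at the right.

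Of the promoter motifs searched on both strands in this window, GGGCGG stood in 70.1% of the members' promoters in 72.4% of those of all expressed genes and in 44.6% of all 27305 promoters in the table, so its share was no higher than among expressed genes. CCAAT stood in 46% of the members' promoters, in 37.1% of those of all expressed genes and in 35.7% of all. Members with CCAAT had a median difference of -0.13 and those without it -0.07, while for GGGCGG the medians were -0.08 with it and -0.13 without. CACGTG stood in 10 members' promoters (5.75%, against 10.9% of expressed genes and 7.43% of all) and TATAAA in 4 (2.3%, against 5.33% and 12%), too few to describe. Among all expressed genes the medians with and without CCAAT were -0.04 and -0.03.

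ZNF genes with roles other than KRAB silencing were mixed. ZNF622, an assembly factor of the large ribosomal subunit, and ZNF593, whose yeast counterpart acts in the same assembly, were lower, ZNF622 with 7.33 in the SiO2-NP array and 7.63 in the control array and ZNF593 with 8.47 and 8.67. ZNF410, an activator of the chromatin remodeller gene CHD4, was 1.27-fold lower (7.76 in the SiO2-NP array and 8.10 in the control array), while CHD4 itself differed by 0.02. ZNF598, the ubiquitin ligase that senses collided ribosomes, was slightly higher (7.85 and 7.79), and ZNF207, a kinetochore factor that loads BUB3, was close to equal (10.37 and 10.43).

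Members with known roles in transcription, chromatin, RNA processing or protein modification also lay on both sides. ZNF644, a partner of the G9a methyltransferase complex, differed by -0.22, ZNF148, a repressor and activator of GC-rich promoters, by -0.25, and the SUMO ligase ZNF451 by -0.13. ZNF326 of the DBIRD splicing complex and ZNF638, which recruits the HUSH silencing complex to unintegrated retroviral DNA, each differed by -0.08. ZNF687 and ZNF592, which work together in a ZMYND8 complex, differed by -0.07 and 0.09. ZNF217, a breast cancer oncogene product, differed by -0.04, ZNF281 by 0.03 and the SCAN factor ZNF24 by 0.01. Of these 10 members, picked for their roles, ZNF148 was the lowest and none reached 1.2-fold in either direction. Over all expressed genes, 7.53% were lower and 2.99% higher by that size, and 10 genes are few for such shares. ZNF121 (9.53 in the SiO2-NP array and 9.68 in the control array) and ZNF460 (9.85 and 9.80) were named for high intensity and differed little.

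Of the 207 members, 201 are protein-coding in RefSeq, 5 are transcribed pseudogenes and 1, the read-through ZNF625-ZNF20, is a long non-coding RNA. All 6 members without a protein had negative differences, from ZNF252P (-0.47) to ZNF37BP (-0.03), and the median was -0.19. Negative differences were found in 70.5% of all members and 59.8% of all expressed genes, and 6 genes are few for such a share. The 201 coding members had a median of -0.09.

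The genes of KRAB protein partners differed by small amounts. Of 20 partner genes listed, 17 were expressed, and 12 of them (70.6%) had negative differences, against 59.8% of all expressed genes. The median was -0.06, against -0.03. None (0) reached 1.2-fold in either direction, against 7.53% lower and 2.99% higher of all expressed genes, and 17 genes are few for such shares. TRIM28 had 10.6 in the SiO2-NP array and 10.8 in the control array, a difference of -0.14. SETDB1 differed by -0.04, and the heterochromatin proteins CBX1, CBX3 and CBX5 by -0.03, -0.11 and 0.03. TASOR and ATF7IP, which act in HUSH and with SETDB1, had the largest differences, -0.24 and -0.21.

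Medians of other finger families lay closer to, or above, that of all expressed genes (-0.03), and no difference between families was tested. The ZFP, ZSCAN and ZKSCAN genes, mostly relatives with C2H2 fingers, had a median of -0.02 over 14 expressed genes with 7 below the control; ZFP36, ZFP36L1 and ZFP36L2 among them have CCCH fingers. The ZBTB genes, which join a BTB domain to C2H2 fingers, had -0.03 over 27 with 17 below, the lowest being ZBTB8OS (-0.48), which shares the stem but is no ZBTB factor. The KLF and SP genes, GC-box binding C2H2 factors, lay the other way, with a median of 0.05 over 18 and 4 below the control. KLF7 had 8.58 in the SiO2-NP array and 8.19 in the control array, and KLF11 had 8.23 and 7.91, while KLF15 (7.09 and 7.65) was the lowest of that family. SP100 and SP110, taken in by their symbols, are nuclear body proteins and differed by 0.01 and 0.04. The RNF genes, with RING fingers, had a median of -0.04 over 54, and the ZC3H genes, with CCCH fingers that bind RNA, had -0.01 over 14, both near the -0.03 of all expressed genes. At 1.2-fold lower, the ZNF genes had 23.7%, against 7.53% of all expressed genes. The ZBTB genes had 3 of 27 (11.1%) and the ZFP, ZSCAN and ZKSCAN genes 1 of 14 (7.14%). The KLF and SP genes had 1 of 18 (5.56%), the RNF genes 2 of 54 (3.7%) and the ZC3H genes 0 of 14. At 1.2-fold higher, the KLF and SP genes had 3 (16.7%) and the ZFP, ZSCAN and ZKSCAN genes 1 (7.14%). The ZNF genes had 1.93% there, all expressed genes 2.99%, and the ZBTB, RNF and ZC3H genes 0.

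**Figure D5:**
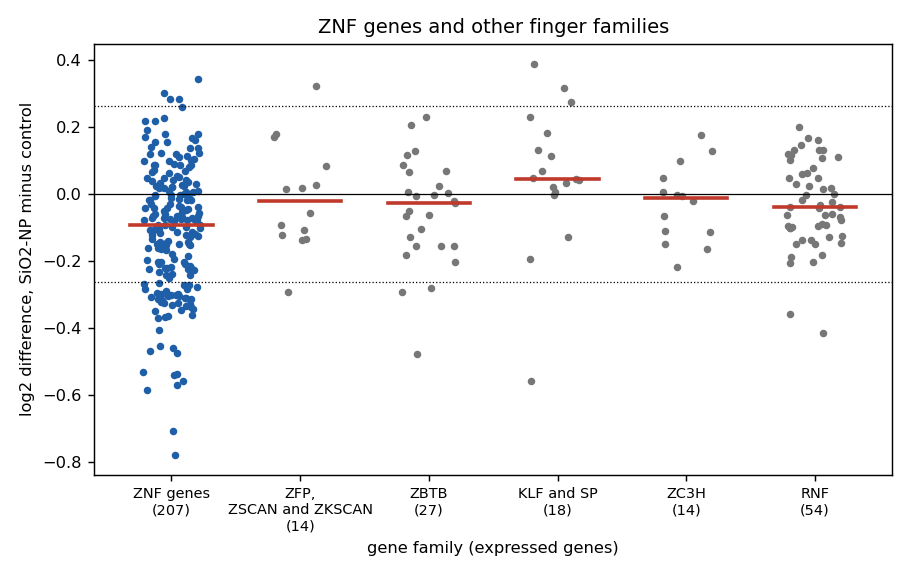
Log2 difference (SiO2-NP minus control) of each expressed gene in 6 families named by symbol, with the number of genes in brackets; red bars are medians, dotted lines mark 1.2-fold, and the sideways spread of the points has no meaning. The ZNF median (-0.09) lies lowest and the KLF and SP median (0.05) highest of the 6.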

How the data were processed

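In the table the authors deposited, each probe set has a log2 intensity on either array; that the scale is log2 was inferred from its range (2.08 to 14.4). RMA and MAS5 are named, without versions or roles, in the submitters' processing notes; the genome build is not stated there. If RMA made these values, its quantile step would hide any shift common to most genes. Scanner files and detection values are not used here, so dim probe sets cannot be told from absent transcripts. Precision is limited by having 1 array per group.

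Of 33297 probe sets, 19460 had 1 gene symbol in the platform annotation and were averaged per gene (18417 genes); 1754 with several symbols and 12083 without were left out. All 207 members matched RefSeq (GRCh38.p14) by gene ID and kept their symbol. RefSeq gave chromosome, gene order, biotype and promoters; no coordinates of probe sets are given. The members, lists, motifs and folds (1.2 and 1.5) were chosen with earlier results of these data known. With 1 array per group no test was run. Genes named were the 10 lowest and 10 highest members, those past 1.5-fold, the 5 brightest, 3 on either side of the level threshold, the 2 most extreme of each run, those with several probe sets, and 22 genes with known roles; members named beside these in the accounts of runs, promoter words and families were chosen after their values were seen. Fold calls and the running median were checked on simulated differences, and the quantile step on the deposited values. Software was pandas 2.3.3 with NumPy 2.4.6 under Python 3.11.15, and figures came from matplotlib 3.10.9.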

Additional observations from a re-analysis of the deposited data

How the results depend on the processing

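The family median kept its negative sign under all 10 alternatives, from -0.062 to -0.093; the value furthest from the -0.093 of the report was -0.062 after centring on the median of the expressed genes, which by construction removes the shift of -0.03 common to them. The share of members below the control was 62.8% after quantile normalization (46.4% of all expressed genes) and 66.7% after subtracting a running median over intensity (49.9%). Members at least 1.2-fold lower numbered 37, 42 and 40 after quantile normalization, running-median and median centring, each a subset of the 49, while the share over all expressed genes was 5.15%, 5.67% and 5.61%. The level filter moved counts and shares: without it (494 genes) 95 (19.2%, against 6.47% of all genes) were at least 1.2-fold lower, 19 (3.85%, against 8.26%) higher and 6 at least 1.5-fold lower, and at the 75th percentile (27 genes) the counts were 3 (11.1%, against 5.91%), 0 (against 2.17%) and 0. Of the 2 members past 1.5-fold, 1 was left when probe sets with several symbols were kept or when members named on such probe sets were left out (chosen once the data had been seen, like the restriction to protein-coding members), and 0 passed 2-fold. Chromosome 19 members minus members elsewhere came to -0.053 in medians, and to -0.031 with the brightest probe set of each gene; the cause was not tested. Of 54 named members, 50 had a value under all 3 alternatives run for single genes, and 4 near the level threshold (ZNF383, ZNF416, ZNF766 and ZNF813) under 2, since they were not over it with the brightest probe set of each gene. Among these values ZNF217 (-0.04) alone changed sign, after quantile normalization (0.01), and the largest move was 0.14 (ZNF626). The planned comparison of members with and without a KRAB domain, and the alternatives that needed protein sequence, were not run because no protein sequences were used here. No paired analysis was possible because there was 1 array on either side, which also left no replicate to omit.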

Other observations

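ZNF genes under the level threshold, which are part of the 494 counted above without the level filter, were lower than other genes under it. The sets were not matched on intensity (median level 6.26 and 5.79). The 287 had a median difference of -0.05, with 173 (60.3%) below the control, whereas 8921 other genes under the threshold had a median of 0.07 with 34.6% below. At least 1.2-fold lower were 46 of the 287 (16%) and 5.07% of the others, and at least 1.2-fold higher were 15 (5.23%) and 13.8%. A dim probe set may hold little signal of its transcript. The lowest was ZNF701 (-0.74) and the highest ZNF705A (0.54). Among genes with known roles, ZNF10, a founding KRAB repressor, differed by -0.30, ZNF93, a KRAB protein that represses LINE-1 elements, by -0.25, and ZNF143, a promoter-binding activator, by -0.01.

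The promoter words picked from the expressed members were also present in 5 to 11 of these dimmer genes, which had no part in choosing them. These genes belong to the same family, and the runs they lie in are not given here. As above, the word, the neighbourhood and the sequence likeness of paralogues cannot be told apart. The dimmer holders thus add little that is independent. The 10-base word stood in 5, all below the control, with a median of -0.43 against -0.05 in the 224 without it. The 8-base word stood in 11, of which 9 were below (median -0.20), and the 12-base word in 6, of which 5 were below (median -0.27).

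Probe sets whose annotation lists several symbols, at least 1 of them ZNF, were not used above. Of 41, 18 reached the level threshold, and 14 of these (77.8%) had negative differences (median -0.10). Over all expressed genes 59.8% did (median -0.03). Some of the 18 list only 1 ZNF symbol beside other genes, so they need not read a ZNF gene.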
